A study of Mus musculus with 342 samples.

Results

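Interferon-stimulated and interferon regulatory genes were followed in the livers of male Collaborative Cross mice given the drug TAK-875. The genes were defined by their symbols. These began with Ifi (and a digit or t), Oas, Irf (and a digit), Gbp (and a digit) or Isg, or were Stat2, Rtp4 or Usp18. Of the 9093 genes measured through a probe set that names 1 gene, 35 carried such a symbol, and each was read through the brightest of its probe sets on average over the arrays. They comprised 11 transcription factors and cofactors, 10 antiviral effectors, 13 GTPases and other Ifi genes, and Usp18. The symbol rule itself uses no measured response, but the genes were chosen with earlier results of these data known.

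Interferons bind receptors at the cell surface and act through the kinases JAK1 and TYK2. These phosphorylate STAT2, which joins IRF9 in a complex that binds the interferon-stimulated response element (ISRE) in the promoters of many genes. The gamma-activated site (GAS) is an element in promoters of genes that respond to interferon gamma, and USP18 damps signalling at the receptor. IRF7 is itself induced by interferon and raises interferon and target gene output further. In liver, hepatocytes, resident macrophages and endothelial cells all express interferon-stimulated genes.

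The Collaborative Cross is a panel of recombinant inbred lines bred from genetically diverse founder strains, so mice of a line share a genotype. The 44 lines gave 342 mice aged about 8 to 10 weeks, 1 array each. The control mice (171) received only the vehicle, 0.5% w/v methylcellulose (0 mg/kg of drug), and the treated mice (171) received TAK-875 at 600 mg/kg, both once by oral gavage. TAK-875 (fasiglifam) activates GPR40, a receptor for free fatty acids, and its development for type 2 diabetes was stopped over liver safety. It is named here as in the sample labels, since the series title carries a different compound number. Whole liver was taken 24 hours after the dose. A vehicle mouse and a TAK-875 mouse of the same line formed each of 171 study pairs, with 4 pairs in 39 lines and 3 pairs in 5 lines. Only males, 1 dose and 1 time were studied.

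Values are log2 expression values, so a difference of 1 is a doubling of signal, and each gene's levels were compared between lines and treatments only within its own probe set. Array medians ran from 5.40 to 6.22. The median correlation of an array with others of its line and treatment was 0.978. It was under 0.92 for 6 arrays, all of TAK-875 mice in 6 lines, and lowest (0.826) in pair 4 of CC010/GeniUnc. Hepatocyte markers stood near the top of the scale in every array (list mean 12.11 to 12.97 over vehicle mice). The number of arrays limits precision.

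The upstream sequence shows which members carry the letters of an ISRE. Promoter windows of 300 bases (250 before to 50 after the start) from RefSeq, build GRCm38.p6, were found for 29 members (36 windows). The ISRE core TTTCNNTTTC, read on both strands, stood in 12 of the 36 windows (33.3%) against 3.44% of all 32851 windows. The GAS letters TTCNNNGAA, the same on both strands, stood in 10 of 36 (27.8%) against 8.30% of all. The motifs were searched separately and may overlap. The following stretches belong to members on which results turn, with the ISRE letters in capitals. They are Ifit1, with a pair of matches (chr19:34640769-34640828, plus strand), Stat2 (chr10:128270251-128270310, plus strand), Gbp2 (chr3:142620579-142620638, plus strand), Ifitm2 (chr7:140955973-140956032, minus strand) and Ifitm3, whose matches lie just after its start (chr7:141010715-141010742, minus strand).
Ifit1: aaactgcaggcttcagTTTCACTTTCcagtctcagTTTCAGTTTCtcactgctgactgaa
Stat2: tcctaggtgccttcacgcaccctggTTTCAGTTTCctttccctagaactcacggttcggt
Gbp2: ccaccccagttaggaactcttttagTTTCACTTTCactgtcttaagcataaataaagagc
Ifitm2: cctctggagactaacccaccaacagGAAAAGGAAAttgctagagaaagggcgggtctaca
Ifitm3: GAAAAGGAAActtctgaGAAACCGAAAc

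A further 7 members held the ISRE letters: Gbp2b, Gbp7, Ifi203, Ifi205, Ifi213, Ifit1bl2 and Irf2. The windows of Irf7, Irf9 and Oasl1 held neither set of letters. Gbp10, Ifi27, Ifi27l2a, Oas1b, Rtp4 and Usp18 were not matched to a window. A match is a description of letters, and no binding was measured.

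The first question was how the interferon genes responded to TAK-875 on average over lines. The difference within each pair was averaged per line, and limma compared the 44 line averages with 0, with Benjamini-Hochberg adjustment over all 9093 genes. Of the 35 genes, 8 fell and 0 rose at an adjusted p of 0.05 (at an unadjusted limma p under 0.05, 13 were lower and 1 higher). That is 22.9% of the members called, near the 27.1% called among all genes. In all genes 15.3% rose and 11.9% fell. This balance moved with scaling, from 1388 higher and 1078 lower as deposited to 1052 and 1334 with arrays centred on their medians, and 1177 and 1383 after another quantile normalization. The members counted as lower were then 10 and 11, with 0 higher. The mean response was negative for 27 of the 35 genes, and their median response was -0.07 on the log2 scale, against 0.01 over all genes.

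The 8 genes that fell were Rtp4, Ifi27, Irf7, Irf2bp2, Ifitm3, Ifi27l2a, Ifi202b and Ifitm1. They comprised 2 of 11 transcription factors and cofactors, 3 of 10 antiviral effectors, and 3 of 13 GTPases and other Ifi genes. The falls ran from 1.06-fold (Ifitm1) to 1.26-fold (Rtp4). Of the 12 members with the ISRE letters 1 fell (Ifitm3), and of the 17 with a window but no ISRE match 4 fell (Ifi202b, Ifitm1, Irf2bp2 and Irf7).

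**Figure D1:**
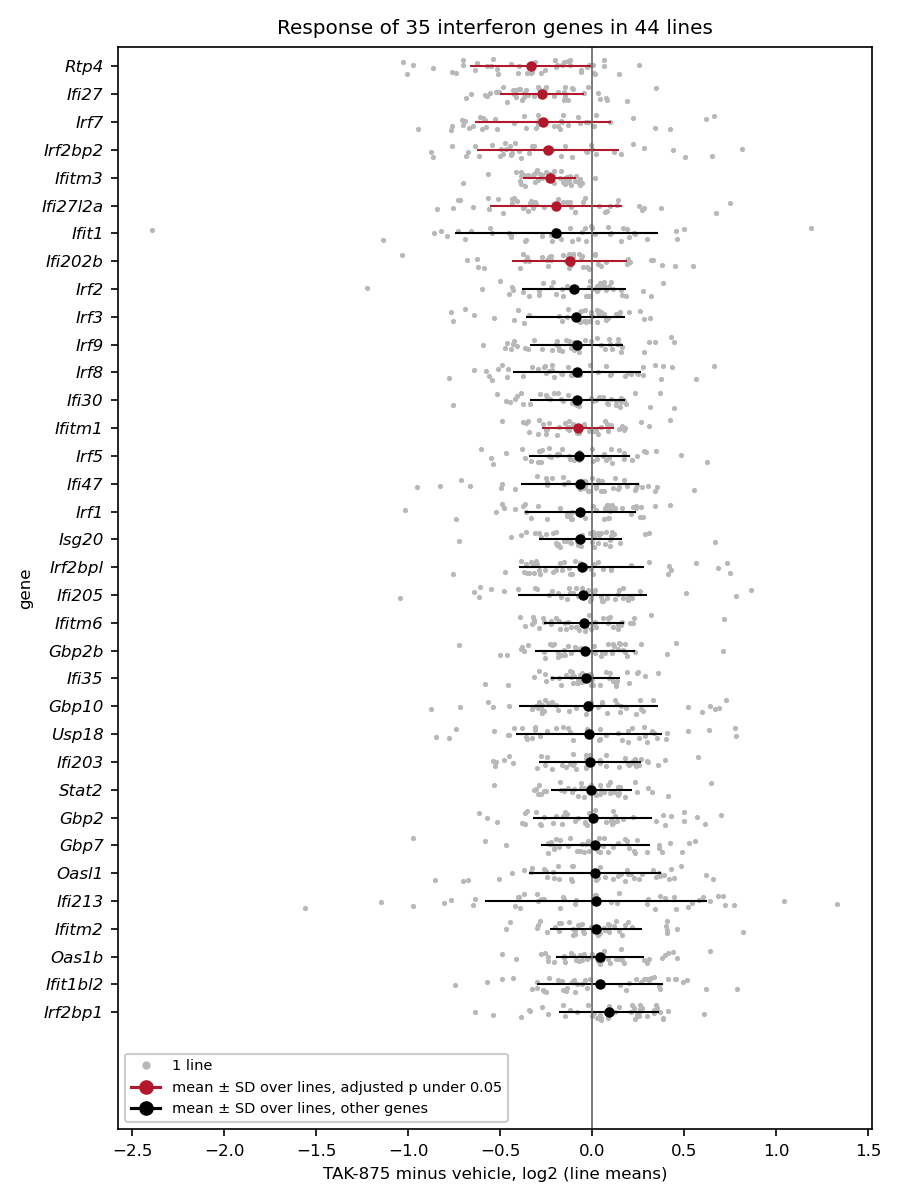
Response of the 35 interferon genes to TAK-875 (x axis, TAK-875 minus vehicle on the log2 scale; y axis, genes ordered by mean response). Grey points are the 44 line means, and large points with bars are the mean ± SD over lines, in red for the 8 genes with a limma adjusted p under 0.05. The line means of Ifitm3 lie left of 0 in 43 of 44 lines, and those of Ifit1 spread from -2.39 to 1.19.

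Among the regulators, Irf7 fell. This factor amplifies the type I interferon response. Its line means ran from 4.35 through a median of 5.90 to 7.30 in vehicle mice, and from 4.27 through 5.61 to 7.03 in TAK-875 mice. The groups overlapped over nearly their whole range, since lines differed far more than treatments did. Within lines the difference was -0.27 ± 0.37 (SD over lines, n = 44, 1.21-fold lower), and it was negative in 35 of 44 lines (limma adjusted p = 1.1e-04).

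Irf2bp2, a corepressor that binds IRF2, also fell. Line means ran from 7.96 (median 8.64) to 9.35 in vehicle mice and from 7.42 (median 8.47) to 9.52 in TAK-875 mice. The change was -0.24 ± 0.39 (n = 44), lower in 35 lines (limma adjusted p = 7.5e-04). The 6 poorly correlated TAK-875 arrays went the other way: they stood at 10.80 to 11.58, above all other TAK-875 mice (at most 9.59), and 1.36 to 3.07 above their pair partners. Of the other 165 pairs 123 were lower, and without the 6 pairs the mean response was -0.35. Its 3 dimmer probe sets gave -0.12, -0.19 and -0.02, so they shared the sign but not the size, and their vehicle levels over lines correlated with those of the brightest by 0.60, 0.54 and 0.30. The mean of all 4 gave -0.14 (limma adjusted p = 0.040).

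The other 9 factors and cofactors did not pass. Irf9, the DNA-binding partner of STAT2, was at -0.09 ± 0.25 and negative in 28 lines (limma adjusted p = 0.088). Irf3, which relays viral sensing, was at -0.09 ± 0.27 and negative in 26 lines. In the 6 poorly correlated pairs Irf3 was always lower (-3.00 to -1.24), as was Irf9 (-1.07 to -0.41), while Irf8 was always higher (0.24 to 2.23). Of the other 165 pairs 84 were lower for Irf3, 89 for Irf9 and 101 for Irf8. Irf2, which can repress IRF1 targets, was at -0.10 ± 0.28 and negative in 24 lines (median line -0.02). It passed with arrays centred (limma adjusted p = 0.035) and after another quantile normalization (0.025). Irf1, an activator of interferon gamma targets, was at -0.07 ± 0.30, though higher in 24 lines (median line 0.04). In the 6 poorly correlated pairs Irf2 (-2.94 to 1.53) and Irf1 (-2.59 to 1.02) were each lower in 5 and higher in 1. Of the other 165 pairs 92 were lower for Irf2 and 87 for Irf1. Irf8, a factor of macrophages and dendritic cells, was at -0.08 ± 0.35. Irf5, a factor of inflammatory cytokine genes, was at -0.07 ± 0.27 and Irf2bpl at -0.06 ± 0.34. Stat2 was at -0.01 ± 0.22, negative in 22 of 44 lines and above 0 in its mean without the 6 poorly correlated pairs. Irf2bp1, another IRF2-binding corepressor, was the member with the highest mean response, at 0.09 ± 0.27 and higher in 31 lines (limma adjusted p = 0.0998). It passed as higher with the study pair as unit and block (0.036) and without the poorly correlated pairs (0.0043).

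Among the antiviral effectors, Ifitm3 fell, with the smallest SD of response over lines of the 35 genes. It is a membrane protein that blocks virus entry from endosomes. Line means ran from 11.31 (median 11.82) to 12.37 in vehicle mice and from 10.69 (median 11.65) to 12.30 in TAK-875 mice. The TAK-875 range began below the vehicle range and otherwise overlapped it. The paired difference was -0.23 ± 0.14 (n = 44, 1.18-fold lower), negative in 43 of 44 lines and in 145 of 171 pairs (limma adjusted p = 7.6e-12). The exception, CC071/TauUnc, was at 0.01 ± 0.20 (n = 4).

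Rtp4, a chaperone of receptors that interferon induces strongly, had the lowest mean response of the members. Line means ran from 5.24 (median 7.08) to 8.91 in vehicle mice and from 5.05 (median 6.80) to 8.62 in TAK-875 mice. The difference was -0.34 ± 0.33 (n = 44, 1.26-fold lower), negative in 37 lines and in 114 of 171 pairs (limma adjusted p = 2.8e-07). A second, dimmer probe set of Rtp4 gave -0.11, lower in 33 lines, and the mean of both gave -0.22. Ifitm1, a relative of Ifitm3 at the cell surface, changed by -0.08 ± 0.20 (lower in 28 lines, limma adjusted p = 0.047). This call was lost in 4 of 11 settings, and it passed in only 17 of the 44 fits that left out 1 line. It was furthest from passing without CC063/Unc (adjusted p = 0.080).

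Ifit1, which binds foreign RNA caps and has a pair of ISRE matches above, had a mean response of -0.20 ± 0.55 and did not pass (limma adjusted p = 0.060, lower in 29 lines). Its SD over lines was more than that of any called gene. The other effectors lay between -0.07 and 0.04: Isg20, an RNA exonuclease, at -0.07, Ifitm6 at -0.05, Oasl1, which restrains translation of Irf7, at 0.02, Ifitm2 at 0.02, Oas1b, of the RNA-sensing oligoadenylate synthetase family, at 0.04, and Ifit1bl2 at 0.04.

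Of the GTPases and other Ifi genes, Ifi27 and Ifi27l2a, related small membrane proteins, fell. For Ifi27 the line means ran from 4.93 (median 8.87) to 10.40 in vehicle mice and from 5.12 (median 8.51) to 9.97 in TAK-875 mice. The difference was -0.27 ± 0.23 (n = 44, 1.21-fold lower), with 38 lines lower (limma adjusted p = 1.4e-08). A second probe set gave -0.28, with 40 lines lower. The probe set used is of a class that may bind several transcripts of a family, so Ifi27 and its relatives are not fully separated. Ifi27l2a changed by -0.20 ± 0.36 (lower in 32 lines, limma adjusted p = 0.0033). Without replicate 1 of each line it was at -0.12 and did not pass (adjusted p = 0.145).

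Ifi202b, an Ifi200-family protein that binds DNA in the cytosol, changed by -0.12 ± 0.31, lower in 31 lines (limma adjusted p = 0.039). It stayed past the threshold in 6 of 10 settings and in 32 of 44 fits without 1 line. The 10 genes of this group that did not pass lay between -0.08 (Ifi30, a lysosomal thiol reductase) and 0.02 (Ifi213). The guanylate-binding proteins, interferon gamma-induced GTPases that attack the membranes around intracellular pathogens, were at -0.04 (Gbp2b), -0.02 (Gbp10), 0.0014 (Gbp2) and 0.02 (Gbp7). A second, dimmer probe set of Gbp7 gave -0.09, lower in 24 lines, and its vehicle levels over lines correlated with those of the first by 0.51. Usp18, the brake on the receptor, was at -0.02 ± 0.40 and split evenly, 22 lines higher and 22 lower.

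The wider pathway was read from lists of genes that are not members. Of 98 such genes 73 were measured, and by limma 21 fell and 0 rose, where 11.9% of all genes fell and 15.3% rose. None of 5 receptors, 3 kinases or 4 inhibitors (SOCS, PIAS and phosphatase genes) passed, and at an unadjusted limma p under 0.05 there were 1, 0 and 0 of them. Of 12 sensors and adaptors 3 fell, of 31 other targets 8 fell, and of 18 genes of interferon gamma action and antigen presentation 10 fell. The 4 with the largest changes were Cxcl9, a chemokine induced by interferon gamma (-0.54 ± 0.53, 37 of 44 lines lower), H2-Ab1 and H2-Eb1, chains of MHC class II (-0.49 ± 0.43, 39 lines, and -0.36 ± 0.40, 35 lines), and Ly6e, an antiviral surface protein (-0.41 ± 0.37, 40 lines). Their limma adjusted p values were 2.0e-07, 1.8e-08, 3.5e-06 and 3.5e-08. The 5 interferon genes of the lists were not analysed here.

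Markers of cells other than hepatocytes moved with the treatment too. Of 15 macrophage markers 12 fell and 0 rose (at an unadjusted limma p under 0.05, 12 lower and 0 higher), with a list mean response of -0.19. The list's level ran from 5.95 (median 6.75) to 8.05 over vehicle arrays and from 5.21 (median 6.54) to 7.81 over TAK-875 arrays. Of 11 endothelial markers 5 fell, of 6 stellate cell markers 2 fell, and of 6 neutrophil markers 0 changed (0 also at an unadjusted limma p under 0.05). Of 8 hepatocyte markers 3 rose and 2 fell. Of 3 plasmacytoid dendritic cell markers Ly6d rose (0.21 ± 0.55, higher in 31 lines, limma adjusted p = 0.046), and of 2 B cell markers Jchain fell (-0.14 ± 0.16, lower in 37 lines, limma adjusted p = 5.8e-05). The 1 T and NK cell marker and the 2 cholangiocyte markers measured did not pass, none of them at an unadjusted limma p under 0.05 either. As above, 11.9% of all genes fell and 15.3% rose. In whole liver, fewer cells of a type and less RNA per cell cannot be told apart.

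Over lines, the response of each member was set against the mean response of the macrophage list, which comes from the same arrays. None of the 35 correlations passed (permutation test, adjusted over 35 tests), while 8 positive and 1 negative had an unadjusted permutation p under 0.05. By rank 0 passed as deposited, but with arrays centred 5 passed by rank and 0 by r. These were Irf1 (rho = 0.47), Ifitm3, Irf5 and Ifi30 (each 0.44; adjusted permutation p = 0.025 for all 4) and Ifi47 (0.40, 0.047), an alternative added after the values were seen. As deposited, without centring, the highest r was that of Ifi47, an interferon gamma-inducible GTPase (r = 0.44, rho = 0.42, adjusted permutation p = 0.087). It was r = 0.49 without the 2 lines farthest from the median of the list, CC015/Unc and CC005/TauUnc. Of the genes that fell, Rtp4 had r = 0.40 (adjusted permutation p = 0.087), Ifitm3 0.36 (0.106) and Ifi27l2a 0.35 (0.106). The remaining fallen genes had lower r: Irf7 0.19, Ifi202b 0.14, Ifitm1 0.03, Irf2bp2 -0.13 and Ifi27 -0.19. Whether the macrophage markers have a part in the falls was not tested beyond these correlations.

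The second question was whether lines responded differently. A moderated F test in limma over the 171 pair differences, with 1 mean per line, passed for 4 of the 35 members (background 16.2% of all genes). They were Ifit1 (SD between lines 0.41, limma adjusted p = 0.0087), Irf9 (SD 0.18, adjusted p = 0.024), Ifitm2 (SD 0.17, adjusted p = 0.037) and Irf2bpl (SD 0.22, adjusted p = 0.046). When 1 strain pair number was left out of every line, 0 to 2 members passed, and 2 passed without the pairing, while the count over all genes fell as well, from 1474 to between 129 and 691 without 1 strain pair number. Irf9 and Ifit1 each passed in 43 of the 44 fits that left out 1 line, Ifitm2 in 37 and Irf2bpl in 31. Ifit1 was at an adjusted p of 0.0504 without CC030/GeniUnc, Irf9 at 0.0507 and Ifitm2 at 0.174 without CC052/GeniUnc, and Irf2bpl at 0.108 without CC032/GeniUnc. Ifi213 (SD 0.35), Irf7 (0.24) and Ifi205 (0.21) had SDs of similar size and did not pass (adjusted p = 0.081, 0.060 and 0.088).

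Ifit1 had the widest line means, at -2.39 in CC030/GeniUnc, -1.14 in CC041/TauUnc and -0.86 in CC021/Unc on the log2 scale, and at 1.19 in CC025/GeniUnc, 0.50 in CC029/Unc and 0.46 in CC023/GeniUnc. In CC030/GeniUnc the vehicle mice of pairs 1 to 4 were at 4.49, 7.29, 4.17 and 9.02, and their TAK-875 partners at 4.47, 3.12, 3.29 and 4.53. Pairs 2 and 4 thus carried the difference, through vehicle mice far above the rest, and the groups overlapped. The line mean was -2.39 ± 2.28 (SD, n = 4; limma adjusted p = 5.1e-06; background 0.286% of genes in this line). That p rests on a spread of Ifit1 shared by all lines (SD within lines 0.74), not on the larger SD of this line. Without pair 2 it was -1.80 and no longer passed (adjusted p = 0.091), and without pair 4 it was -1.69 and passed (0.028).

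The same vehicle mouse, number 4 of CC030/GeniUnc, was the highest of its 4 line mates for 22 of the 35 genes. The share of all genes that were highest in this mouse was not counted. Its array median (6.06) was also the highest, against 6.00, 6.01 and 5.89. For Usp18 the vehicle mice of this line were at 7.84, 8.39, 7.34 and 9.68, against 7.38, 7.56, 7.01 and 7.89 in TAK-875 mice. For Irf7 the vehicle mice stood at 7.11, 7.15, 6.79 and 8.16, against 6.71, 5.97, 6.70 and 6.06. Vehicle mouse 4 was the highest of the 8 for both genes. For Rtp4 the vehicle mice were at 8.37, 9.33, 8.12 and 9.84 and the TAK-875 mice at 8.16, 7.98, 7.83 and 7.57, again with mice 2 and 4 on top. The line differences were -0.85 for Usp18, -0.95 for Irf7 and -1.03 for Rtp4, and none of these 3 passed within the line.

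Single mice with raised interferon genes also occurred after TAK-875. Mouse 2 of the TAK-875 group of CC059/TauUnc was the highest of its 4 line mates for 25 of the 35 genes. Here too the share over all genes was not counted. The array median of this mouse was 6.06, against 5.91, 6.00 and 6.10. Its Gbp2 stood at 7.46, where the other 3 were at 4.49, 4.13 and 4.63. For Ifit1 a vehicle mouse of CC055/TauUnc stood at 7.42, where the other 3 were at 3.87, 3.82 and 4.59. These mice were picked out with their values known.

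For Irf9 the lowest line responses were -0.60 ± 0.58 in CC030/GeniUnc, -0.47 ± 0.37 in CC042/GeniUnc and -0.46 ± 0.45 in CC010/GeniUnc, and the highest 0.44 ± 0.26 in CC071/TauUnc, 0.43 ± 0.07 in CC052/GeniUnc and 0.34 ± 0.25 in CC008/GeniUnc (SD over pairs). In CC071/TauUnc the vehicle mice were at 6.66, 6.99, 6.56 and 6.49 and their partners at 6.98, 7.21, 6.98 and 7.29. All 4 pairs were higher with TAK-875 there, and the groups overlapped by 1 vehicle mouse. Pair 4 of CC042/GeniUnc and of CC010/GeniUnc holds a poorly correlated TAK-875 array, and Irf9 was lower in all 6 such pairs (-1.07 to -0.41).

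Irf2bpl, a relative of the IRF2-binding corepressors, ran from -0.76 ± 0.59 in CC019/TauUnc, -0.48 in CC017/Unc and -0.39 in CC004/TauUnc to 0.68 in CC051/TauUnc, 0.73 in CC010/GeniUnc and 0.75 ± 0.18 in CC032/GeniUnc. In CC032/GeniUnc the vehicle mice were at 5.60, 5.76, 6.13 and 5.50 and the TAK-875 mice at 6.30, 6.76, 6.71 and 6.20. The groups of this line did not overlap. Pair 4 of CC010/GeniUnc and of CC004/TauUnc holds a poorly correlated TAK-875 array. Over the 6 such pairs Irf2bpl was higher in 4 and lower in 2 (-0.79 to 1.05). The probe set is of a class that may bind unrelated transcripts, and with the mean of both probe sets of Irf2bpl the test between lines did not pass (adjusted p = 0.159).

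Responses of 3 further genes varied widely over lines without passing the test. Ifi213 ran from -1.56 in CC025/GeniUnc, -1.15 in CC006/TauUnc and -0.98 in CC065/Unc to 0.77 in CC052/GeniUnc, 1.04 in CC060/Unc and 1.33 in CC044/Unc. Irf7 ran from -0.95 in CC030/GeniUnc, -0.77 in CC063/Unc and -0.76 in CC058/Unc to 0.42 in CC039/Unc, 0.62 in CC008/GeniUnc and 0.66 in CC029/Unc. Ifi205, a DNA-binding Ifi200-family gene, ran from -1.05 in CC041/TauUnc, -0.64 in CC071/TauUnc and -0.62 in CC060/Unc to 0.51 in CC001/Unc, 0.78 in CC033/GeniUnc and 0.86 in CC005/TauUnc.

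Within single lines, 16 of the 1540 tests of a member in a line passed an adjusted p of 0.05 in limma (background 1.64% of all gene and line tests). Of these calls 12 were lower and 4 higher, in 11 lines. Each test used a spread per gene shared by all lines, so its p does not measure the SD printed for the line. Ifitm3 was lower in 5 lines, namely CC004/TauUnc (background 1.30% of genes in the line), CC007/Unc (4.75%), CC015/Unc (2.21%), CC028/GeniUnc (1.62%) and CC053/Unc (4.34%). In CC004/TauUnc its vehicle mice were at 11.29, 11.47, 11.66 and 11.15 and the TAK-875 mice at 10.89, 10.70, 10.89 and 10.28. The groups did not overlap, and the line difference was -0.70 ± 0.21 (SD, n = 4, limma adjusted p = 6.6e-05). It passed whichever pair was left out, pair 4 included, which holds one of the poorly correlated arrays. In each of the other 4 lines Ifitm3 lost its call when some pair was left out. In CC053/Unc, with 3 pairs, the call was lost without pair 3 and without pair 2, which holds another poorly correlated array.

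CC041/TauUnc had the most members called, namely Gbp7, Ifi205 and Ifit1, all lower, in a line where 15.4% of all genes were called. Gbp7, a guanylate-binding GTPase, was at 4.77, 5.60, 5.46 and 6.06 in vehicle mice and 4.47, 4.45, 4.39 and 4.69 in TAK-875 mice (difference -0.97 ± 0.46, limma adjusted p = 0.0039). Ifi205 was at 5.24, 5.72, 5.27 and 5.17 in vehicle mice and 4.09, 4.36, 4.25 and 4.51 in TAK-875 mice (-1.05 ± 0.30, adjusted p = 0.0071). The groups of the line did not overlap for either gene. Ifit1 was at 3.99, 5.07, 4.27 and 4.91 against 3.21, 3.05, 4.03 and 3.40 (-1.14 ± 0.79, adjusted p = 0.025), with 1 TAK-875 mouse inside the vehicle range. Gbp7 lost its call without pair 3, Ifi205 without pair 2 or 3, and Ifit1 whichever pair was left out. The probe set of Ifi205 may bind unrelated transcripts, and Gbp7 was read here through the brighter of its probe sets alone.

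In CC052/GeniUnc, where 11.3% of all genes were called, Ifitm2 and Oas1b were higher. Ifitm2, a virus entry inhibitor of the family of Ifitm3, was at 10.01, 10.06, 9.71 and 9.85 in vehicle mice and 11.26, 10.52, 10.32 and 10.80 in TAK-875 mice. Every TAK-875 mouse lay above every vehicle mouse, and the difference was 0.82 ± 0.36 (limma adjusted p = 8.3e-04). Oas1b was at 6.48, 6.32, 5.90 and 6.62 against 6.99, 6.82, 6.97 and 7.10, again without overlap (0.64 ± 0.29, adjusted p = 0.046). Oas1b lost its call whichever pair was left out, while Ifitm2 kept it each time. The other large changes there, Ifi213 at 0.77 and Rtp4 at -0.70, did not pass.

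Calls in CC010/GeniUnc (background 2.63%) and CC042/GeniUnc (background 3.96%) came from 1 TAK-875 mouse each, whose array was among the 6 that correlated poorly with their line mates. In CC010/GeniUnc Ifi30 was at 7.88, 8.48, 7.80 and 7.79 in vehicle mice and 7.72, 8.19, 7.68 and 5.35 in TAK-875 mice, and Ifitm6 at 3.86, 4.04, 4.16 and 3.68 against 3.71, 4.83, 4.17 and 5.90. Ifit1 (-0.82) and Usp18 (-0.74) did not pass in that line. In CC042/GeniUnc, with pairs 2 to 4, Irf2 was at 7.71, 7.96 and 8.07 against 7.56, 7.37 and 5.14, and Irf1 at 6.99, 7.10 and 6.83 against 6.92, 6.71 and 4.23. Ifi47 was at -0.83 there and did not pass. In both lines mouse 4 of the TAK-875 group stood alone. Without pair 4 none of these 4 calls remained (limma adjusted p = 0.995 for both genes of CC010/GeniUnc and 0.999 for both of CC042/GeniUnc).

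The remaining calls were Ifi205 in CC005/TauUnc and Ifit1 in CC030/GeniUnc. In CC005/TauUnc Ifi205 was at 3.72, 4.49, 3.88 and 3.99 in vehicle mice and 4.55, 5.96, 5.38 and 3.65 in TAK-875 mice, higher in 3 of 4 pairs (0.86 ± 0.86, limma adjusted p = 0.029, background 11.3%). It lost its call without pair 1, 2 or 3.

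**Figure D2:**
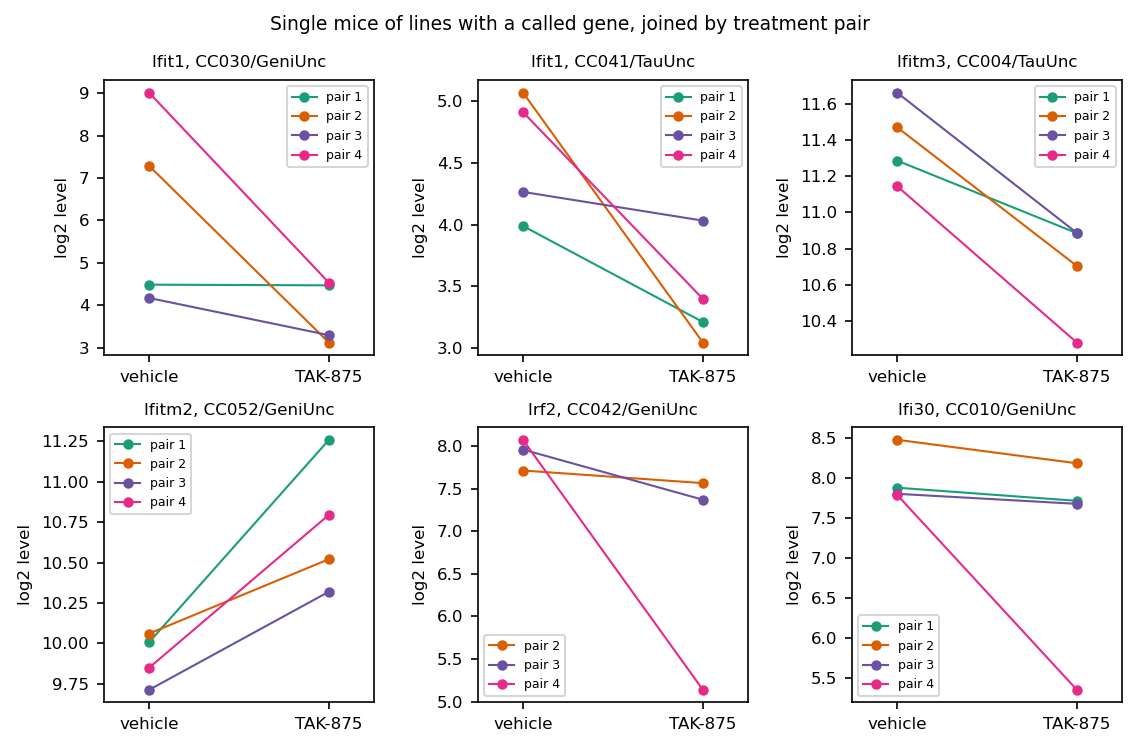
Levels of single mice (y axis, log2, with a separate range in each panel) under vehicle and TAK-875 (x axis) for 6 combinations of gene and line, with lines joining the mice of a study pair. Ifitm3 in CC004/TauUnc and Ifitm2 in CC052/GeniUnc moved in every pair, whereas Irf2 in CC042/GeniUnc (5.14) and Ifi30 in CC010/GeniUnc (5.35) were low in the TAK-875 mouse of pair 4 alone.

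The third question was how the level without the drug differed between lines. Among vehicle mice, the limma F test between lines passed for 34 of the 35 members, all except Gbp2 (adjusted p = 0.055), against a background of 98.0% of all genes. The median SD between lines, after subtraction of the spread within lines, was 0.33 on the log2 scale for the members and 0.25 for all genes. The 8 members with the largest SD were Ifi27, Usp18, Ifi27l2a, Ifi205, Irf7, Rtp4, Stat2 and Oasl1.

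Ifi27 had an SD between lines of 1.23 (limma adjusted p = 1.1e-66). Its lowest lines were CC008/GeniUnc at 4.93 ± 0.47, CC071/TauUnc at 5.29 ± 0.21 and CC011/Unc at 5.86 ± 0.26. Its highest were CC058/Unc at 10.40 ± 0.33, CC030/GeniUnc at 10.11 ± 0.14 and CC024/GeniUnc at 10.08 ± 0.13 (SD, n = 4 mice each). The end lines differed 44.4-fold. Neighbours among these 6 lines overlapped within their SDs, except that CC011/Unc stood above CC071/TauUnc by more than both SDs together. In CC008/GeniUnc the vehicle mice stood at 4.31, 4.90, 5.44 and 5.07, and in CC058/Unc at 10.60, 10.76, 10.07 and 10.18, with no overlap. The second probe set of Ifi27 gave an SD of 1.12 and correlated with the first by 0.98 over lines.

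Usp18 (SD 0.87) ran from 3.80 ± 0.22 in CC022/GeniUnc, 4.44 ± 0.43 in CC071/TauUnc and 4.50 ± 0.31 in CC004/TauUnc, through a median line of 5.87, to 7.16 ± 0.14 in CC024/GeniUnc, 7.25 ± 0.37 in CC010/GeniUnc and 8.31 ± 1.01 in CC030/GeniUnc. The end lines differed 22.8-fold. In CC022/GeniUnc all 4 vehicle mice lay between 3.66 and 4.12, below every vehicle mouse of CC030/GeniUnc, whose spread came from mouse 4. Behind the end lines, the next 2 at either end did not differ beyond their spread.

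Ifi27l2a (SD 0.84) ran from 2.36 ± 0.16 in CC070/TauUnc, 2.78 ± 0.80 in CC071/TauUnc and 3.33 ± 0.55 in CC065/Unc to 6.10 ± 0.30 in CC001/Unc, 6.21 ± 0.54 in CC055/TauUnc and 6.27 ± 0.26 in CC024/GeniUnc, around a median of 4.92. Ifi205 (SD 0.82) ran from 2.73 ± 0.30 in CC012/GeniUnc, 2.78 ± 0.18 in CC015/Unc and 2.84 ± 0.17 in CC059/TauUnc to 5.35 ± 0.95 in CC055/TauUnc, 5.35 ± 0.25 in CC041/TauUnc and 5.41 ± 0.46 in CC024/GeniUnc, around a median of 3.56. For both genes the 3 lines at the high end did not differ beyond their spread. CC065/Unc has 3 mice, and the other lines named here have 4.

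Irf7 (SD 0.72) ran from 4.35 ± 0.65 in CC019/TauUnc, 4.52 ± 0.30 in CC061/GeniUnc and 4.57 ± 0.46 in CC004/TauUnc to 6.96 ± 0.10 in CC070/TauUnc, 7.04 ± 0.24 in CC024/GeniUnc and 7.30 ± 0.59 in CC030/GeniUnc, a 7.75-fold range. Rtp4 (SD 0.70) ran from 5.24 ± 0.40 in CC008/GeniUnc, 5.51 ± 0.54 in CC022/GeniUnc and 6.21 ± 0.04 in CC052/GeniUnc to 8.53 ± 0.30 in CC024/GeniUnc, 8.56 ± 0.60 in CC055/TauUnc and 8.91 ± 0.81 in CC030/GeniUnc, a 12.7-fold range, though with the mean of both its probe sets the SD was 0.44. The lines CC024/GeniUnc and CC030/GeniUnc were among the highest 3 for both, with overlapping spreads.

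Oasl1 (SD 0.68) ran from 4.71 ± 0.40 in CC071/TauUnc, 5.10 ± 0.20 in CC022/GeniUnc and 5.14 ± 0.63 in CC019/TauUnc to 7.43 ± 0.36 in CC024/GeniUnc, 7.55 ± 0.24 in CC055/TauUnc and 8.01 ± 0.86 in CC030/GeniUnc. Its 3 highest lines were those of Rtp4.

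Stat2 (SD 0.69), part of the complex that binds the ISRE, had another order of lines. Its lowest were CC037/TauUnc at 5.56 ± 0.25, CC033/GeniUnc at 5.67 ± 0.30 and CC019/TauUnc at 5.76 ± 0.15, and its highest CC015/Unc at 7.92 ± 0.14, CC007/Unc at 7.93 ± 0.11 and CC008/GeniUnc at 8.04 ± 0.51. CC008/GeniUnc, the top line here, was the lowest for Ifi27 and Rtp4. The second probe set of Stat2 ordered the lines much as the first did (r = 0.92 over lines).

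Irf3 stood apart in 1 line. In CC071/TauUnc the vehicle mice were at 7.19, 6.74, 6.73 and 7.19 and the TAK-875 mice at 6.99, 6.86, 6.85 and 7.13, while the next lowest vehicle line mean was 8.72 ± 0.17 (CC030/GeniUnc) and the highest 9.31 (CC005/TauUnc). The second probe set of Irf3 correlated with this one by 0.96 over lines. The first may bind unrelated transcripts. This gene was picked out with its values known.

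**Figure D3:**
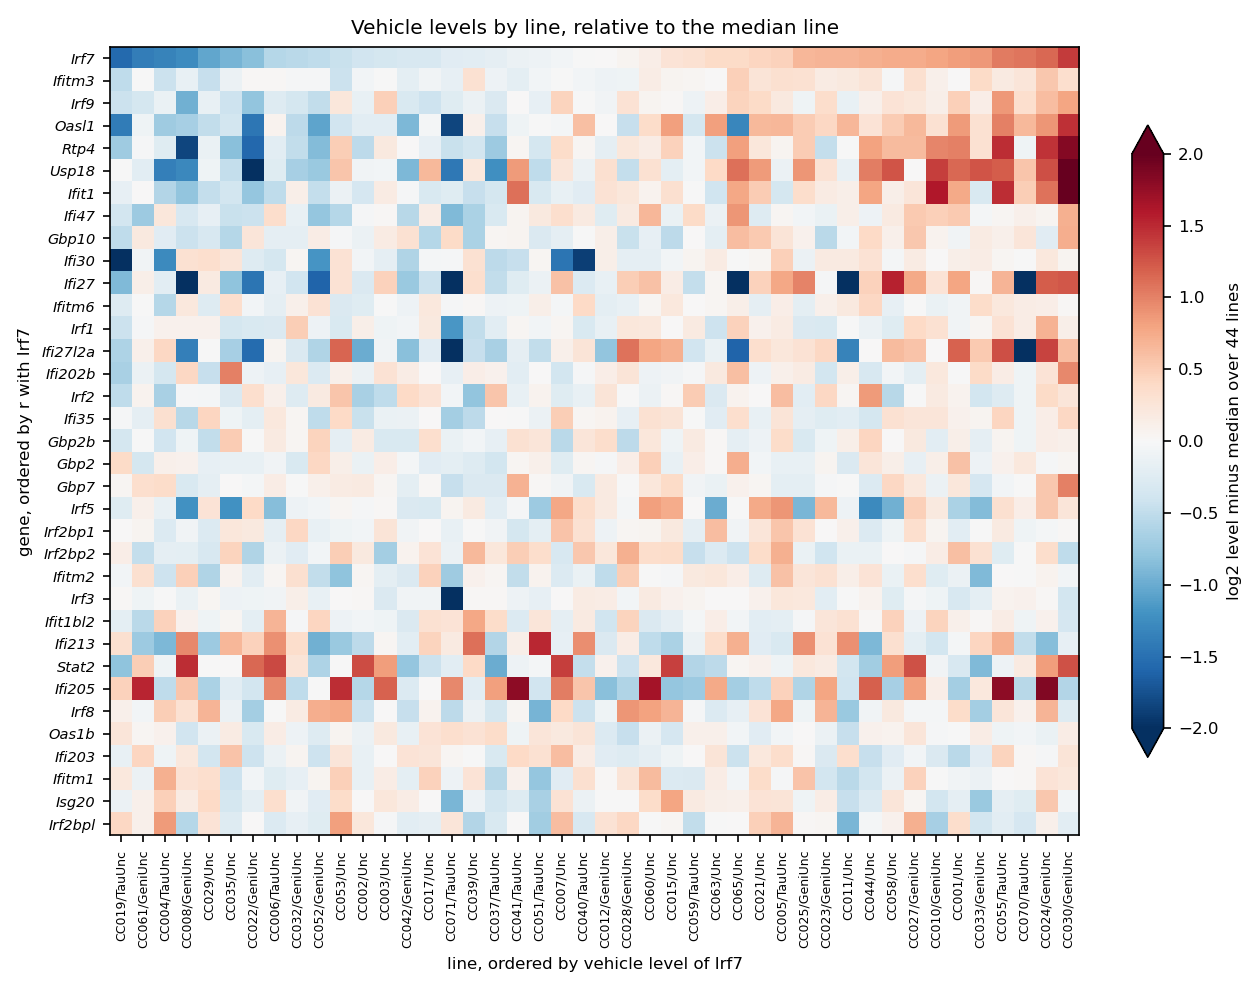
Vehicle line means of the 35 genes (rows, ordered by their correlation with Irf7) in 44 lines (columns, ordered by the vehicle level of Irf7), as log2 level minus the gene's median over lines, with colours ending at -2 and 2. Ifitm3, Irf9, Oasl1, Rtp4, Usp18 and Ifit1 shade from blue to red along with Irf7, whereas Stat2 and Ifi205 do not, and Irf3 is low in CC071/TauUnc alone.

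The line levels recurred in other mice. The vehicle line mean and the TAK-875 line mean of a gene come from different animals, and over the 44 lines they correlated with a median r of 0.74 over the 35 genes. This comparison was added after the values were seen. The correlation passed for 33 genes (permutation test, adjusted over 35 tests), for 34 with arrays centred and for 32 by rank. It was not computed over all genes, of which 98.0% differed between lines in vehicle mice. The count is therefore not shown to be particular to the members. The value of r was over 0.9 for 6 genes. Ifi27 had the highest (r = 0.99, rho = 0.96), followed by Stat2 (0.95, 0.90), Ifi30 (0.93, 0.75), Ifi27l2a (0.92, 0.91), Ifi205 (0.91, 0.88) and Usp18 (0.90, 0.89). Their adjusted permutation p of 1.75e-05 comes from the smallest unadjusted p that 100000 permutations can give (1e-05). The lowest were Gbp2 (r = 0.24, adjusted permutation p = 0.114) and Ifit1bl2 (r = 0.27, 0.077). Gbp2 was also the gene whose vehicle levels did not pass between lines.

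**Figure D4:**
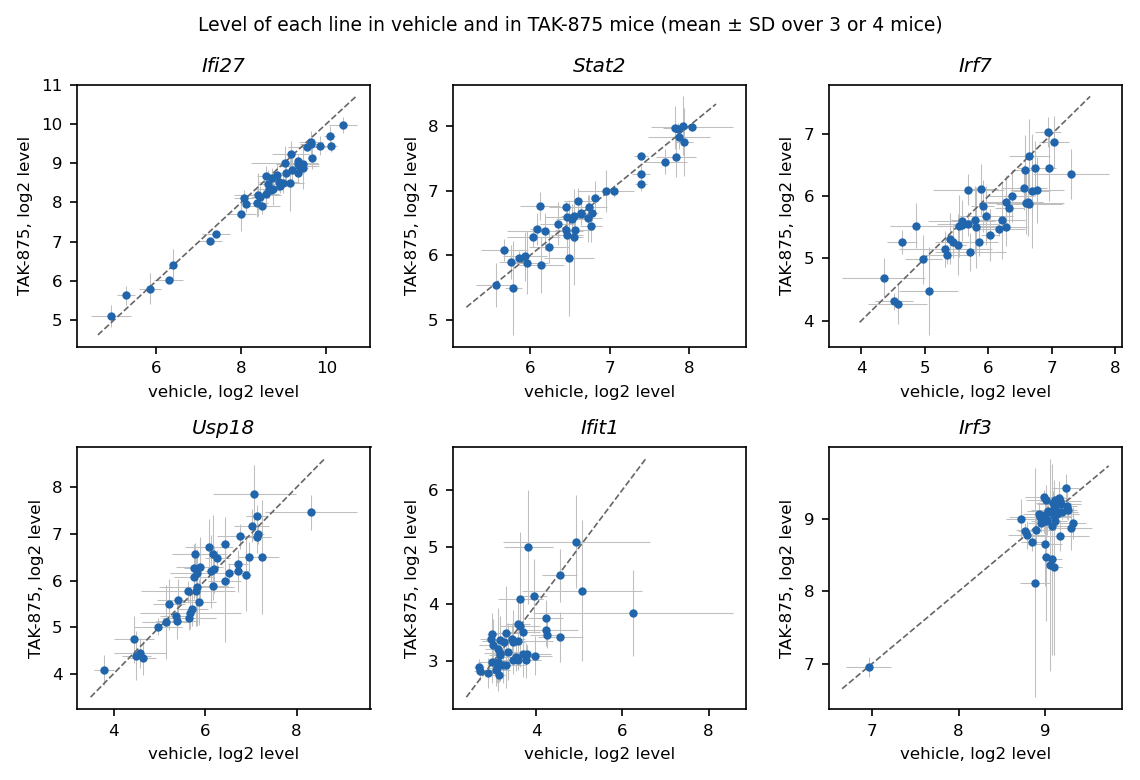
TAK-875 line mean against vehicle line mean (both log2) for 6 genes, 1 point per line, with bars of 1 SD over 3 or 4 mice and a dashed line of equality. Ifi27 and Stat2 follow the diagonal closely, Irf7 lies mostly below it, Ifit1 has 1 line far to the right (CC030/GeniUnc, vehicle mean 6.24), and Irf3 has 1 line (CC071/TauUnc) far below the others in both treatments.

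Lines with a high vehicle level of Irf7 were also high for other members. Over the 44 vehicle line means, 9 of the 34 other genes correlated with Irf7 (permutation test, adjusted over 34 tests), all positively. They were Ifitm3 (r = 0.75, rho = 0.74), Irf9 (0.75, 0.76), Oasl1 (0.72, 0.78), Rtp4 (0.72, 0.71), Usp18 (0.71, 0.72), Ifit1 (0.67, 0.70), Ifi47 (0.50, 0.51), Gbp10 (0.40, 0.36) and Ifi30 (0.39, 0.32). The first 6 share an adjusted permutation p of 5.67e-05, which comes from the smallest unadjusted p that 100000 permutations can give (1e-05), and those of Ifi47, Gbp10 and Ifi30 were 0.0021, 0.026 and 0.031. Without CC019/TauUnc and CC030/GeniUnc, the lines farthest from the median of Irf7, the first 6 kept r between 0.66 and 0.72, while Gbp10 fell to 0.29 and Ifi30 to 0.26. By rank 9 passed as well, but not Gbp10 (adjusted permutation p = 0.060) or Ifi30 (0.092), and instead Ifi27 (rho = 0.50, 0.0023) and Ifi27l2a (rho = 0.42, 0.019). Both values of a point come from the same arrays. Ifitm3 (chr7:141010715) and Irf7 (chr7:141266425) are neighbours on chromosome 7, so lines can inherit them together. Ifitm2 also lies there (chr7:140955973), with r = 0.10. Whether shared inheritance bears on the correlation of Ifitm3 with Irf7 was not tested.

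The median r over the 34 genes was 0.17. Correlations with Irf7 were not computed over all genes, so the count above has no background share and is not shown to be particular to the members. Among the other regulators r was 0.29 for Irf1 (rho = 0.34), 0.23 for Irf2 and 0.15 for Irf5, and it lay near 0 for Stat2 (-0.02), Irf8 (-0.03) and Irf3 (0.03), as for Ifi205 (-0.02). None of these passed as deposited, and Irf1 passed by rank with arrays centred (rho = 0.36, adjusted permutation p = 0.044). The lowest were Irf2bpl at -0.15 and Isg20 at -0.12. Of the 6 genes with the highest r, Ifit1 and Ifitm3 held the ISRE letters printed above, and the windows of Irf9 and Oasl1 did not.

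Responses to the drug were set against that of Irf7 in the same way. Over the 44 line responses, 6 genes correlated with Irf7 (permutation test, adjusted over 34 tests), namely Oasl1 (r = 0.49, rho = 0.50, adjusted permutation p = 0.021), Irf9 (0.47, 0.41, p = 0.021), Usp18 (0.43, 0.38, p = 0.043), Ifi27 (0.41, 0.44, p = 0.047), Ifit1 (0.40, 0.37, p = 0.047) and Ifi35 (0.39, 0.50, p = 0.047). A further 2 positive correlations had an unadjusted permutation p under 0.05. For the response, too, no share over all genes was computed. Without CC029/Unc and CC008/GeniUnc, the lines farthest from the median response of Irf7, r for the 6 genes lay between 0.34 and 0.44 and 0 of 34 passed. The adjusted calls were thus lost while r changed little. By rank 3 passed. With arrays centred 10 passed for the response, as many as for the vehicle level (median r 0.21 and 0.26 over the 34 genes). Without the same 2 lines, r after centring lay between 0.30 (Ifit1) and 0.55 (Ifi35) for those 10 genes, with 0.52 for Oasl1, 0.51 for Ifi27 and 0.48 for Irf9.

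**Figure D5:**
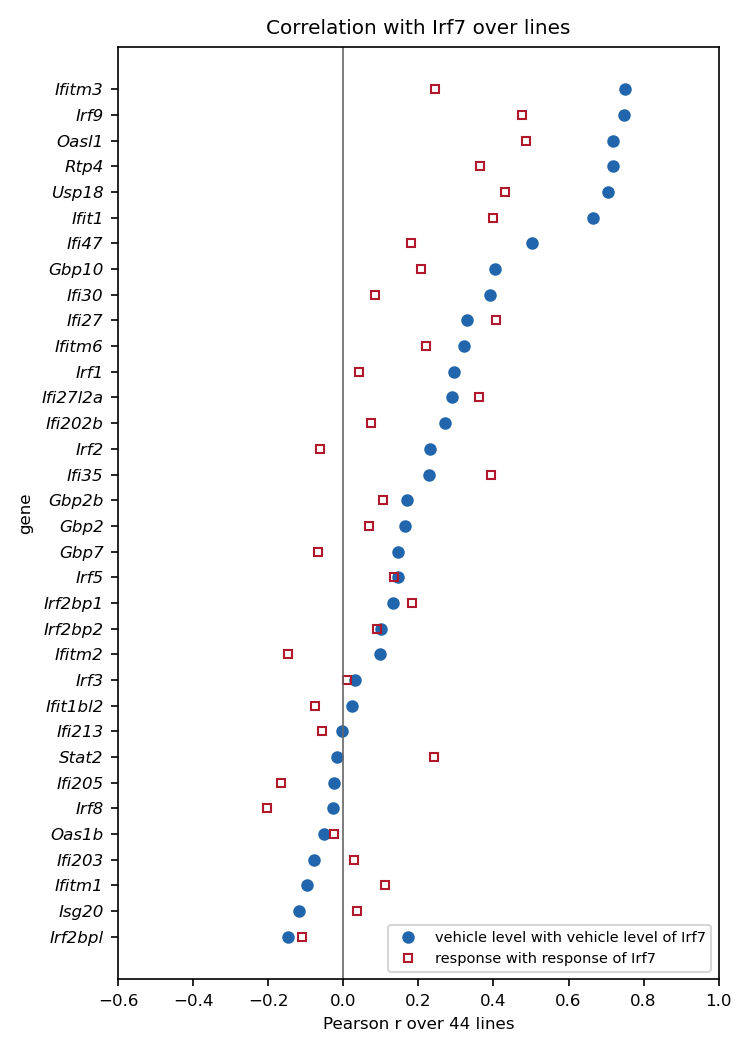
Pearson correlation of each gene with Irf7 over 44 lines (x axis, r; y axis, genes ordered by the vehicle correlation), for the vehicle level (filled circles) and for the response to TAK-875 (open squares). The 6 genes at the top reach 0.67 to 0.75 for the level, and no response correlation exceeds 0.49.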

How the data were processed

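Liver RNA of 342 mice was profiled on Affymetrix mouse arrays after biotin labelling, per the labels' protocols. The authors deposited 1 log2 value for each probe set and array. The submitters' processing notes name RMA and Affymetrix Power Tools, with versions not given in the sources used here. RMA corrects background, normalizes and summarises probes. Array medians still differed, so other scalings were tried. Of 16397 probe sets, 13083 name 1 gene in the platform's table, 261 several and 3053 none, and only the first kind was used. All 35 symbols are also those of the RefSeq table of GRCm38.p6. Lines came from the labels, and 1 further line that they mention (45 in all) is not analysed here. Scanner signals were not used, and probe sets were not filtered on detection.

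Tests used limma 3.58.1 in R 4.3.3 (eBayes with a trend, two-sided, Benjamini-Hochberg over all 9093 genes, adjusted p under 0.05), checked on simulated data. The unit was the line for the mean response and the study pair for comparisons of lines (127 residual degrees of freedom). Tests within single lines came from that same fit, with the spread of a gene shared by all lines. Correlations used 100000 permutations, two-sided, in Python 3.11.15 with scipy 1.17.1, numpy 2.4.6 and pandas 2.3.3, adjusted within 4 families of 34 or 35 relations, and figures matplotlib 3.10.9. Pairing follows the labels. Deviations of paired arrays correlated by 0.0361 on average, against -0.0117 for unpaired arrays of a line, and 60 of 171 pairs exceeded 0.1.

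Given with values were all genes called on average, every Irf gene and Stat2, the 5 with the largest SD of response and 8 with the largest SD of vehicle level between lines, with their 3 lowest and 3 highest lines, and the largest changes in the lines with most calls. Ties made these 4 lines. The members and lists were chosen with earlier results of these data known.

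The alternatives were the mean of all probe sets, centred arrays, another quantile normalization, the dimmest 25% of genes left out, each strain pair number left out, the pair as unit or no pairing, no trend, and, added after seeing the data, each line left out, each pair of a called line left out, and the 6 pairs with a poorly correlated array left out.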

Additional observations from a re-analysis of the deposited data

Results flagged for a closer look

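For 4 genes the response differed between lines in the limma F test of the difference itself: Ifit1 (adjusted p = 0.00865), Irf9 (adjusted p = 0.0238), Ifitm2 (adjusted p = 0.0371) and Irf2bpl (adjusted p = 0.0463). Each lost its call without 1 line, as given in the report.

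Among 39 groups of 4 mice or pairs behind the calls within lines, 3 held a value that stood apart from the other 3 by a range criterion that chance meets in about 1 of 20 groups. The vehicle mouse of pair 2 of CC010/GeniUnc had Ifi30 at 8.48, with its line mates between 7.79 and 7.88. In the same line the pair difference of Ifi30 in pair 4 was -2.44, in the pair with the poorly correlated array. In CC052/GeniUnc the pair difference of Oas1b in pair 3 was 1.07, with the other pairs lower.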

How the results depend on the processing

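For the mean response, between 5 and 9 members passed (8 as reported) when 1 strain pair number was left out, and 6 to 10 when 1 line was. With the study pair as unit and replicate block 11 members passed, Irf2bp1 among them as higher, and Ifitm1 did not (limma adjusted p = 0.064). Ifitm3, Ifi27, Rtp4, Irf7 and Irf2bp2 passed in all 11 alternatives, Ifi27l2a in 9 of 10, Ifitm1 in 7 of 11 and Ifi202b in 6 of 10. The mean response of Stat2, which never passed, was -0.0065 as reported, 0.037 with the mean of its probe sets, 0.023 without the poorly correlated pairs, and between -0.033 and 0.023 without 1 strain pair number. For the response between lines the members passing fell from 4 to between 0 and 2 without 1 strain pair number, 2 with no replicate block, and 2 without CC007/Unc, CC041/TauUnc, CC052/GeniUnc or CC071/TauUnc. Over all genes that count was 1474 as reported and 129 to 691 without 1 strain pair number, where fewer pairs enter each line. Calls within single lines were 16 as reported, 9 to 20 without 1 strain pair number, and 9 without the dimmest 25% of genes, which leaves 22 members. Over all genes they were 6577 and 3233 to 7570. All 22 of these passed for the vehicle level between lines (34 of 35 as reported). Correlations of response with Irf7 passed for 6 genes as reported, 0 without the 2 farthest lines, 10 with arrays centred (10 also by rank), and 3 by Spearman's rho as deposited. Those with the macrophage list passed for 0, for 1 without the 2 farthest lines, and for 5 by rank with arrays centred. The 8 genes that fell kept a negative mean response in every alternative that held them. Members near 0 did not all keep their sign. Without 1 line, Gbp2 ran from -0.015 to 0.016 and Ifi213 from -0.013 to 0.055. The cause of the changes was not tested.

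Dim probe sets limit the effects of low genes, since detection was not assessed. Whether the probes of a set bind equally well in all lines was not tested, and it bears on every level compared between lines.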
